A study of Mus musculus with 20 samples.

Results

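Liver RNA of 10 genes that control the SREBP transcription factors or move sterols within the cell was compared between mice fed chow and mice fed a high-fat diet (HFD) that held fishmeal, beef or salmon filet. The genes were taken by symbol from a table of unnormalised read counts that lists 55487 Ensembl genes. Srebf2, Scap, Insig1, Insig2, Mbtps1 and Mbtps2 make up the control arm, and Stard4, Npc1, Npc2 and Soat2 the sterol trafficking arm. Each symbol matched 1 row, and each of the 10 genes passed the filter on low counts in every comparison.

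SREBP-2, the product of Srebf2, is made as a membrane protein of the endoplasmic reticulum and is held there by Scap and the Insig proteins while sterols are plentiful. When sterols run low, Scap carries it to the Golgi, where the proteases S1P (Mbtps1) and S2P (Mbtps2) release the part that enters the nucleus and switches on cholesterol synthesis and LDL uptake. In liver, where the body's cholesterol is made, taken up and excreted, Npc1 and Npc2 let cholesterol out of lysosomes, Stard4 carries it between membranes, and Soat2 turns it into cholesteryl esters.

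The samples were livers of 20 female C57BL/6J mice at 28 weeks of age, with 1 library per mouse: 5 mice on chow, 5 on HFD with fishmeal made from salmon by-products, 6 on HFD with salmon filet and 4 on HFD with beef. All HFD-fed mice had first received HFD for 10 weeks and then 10 more weeks of HFD in which the named source gave 50% of the protein, so the chow group differed from them in the whole diet. By the study's methods the HFDs were matched in energy from fat, protein and carbohydrate but not in composition: the fishmeal diet held more cholesterol than either of the others, and soybean oil and the kinds of fatty acid differed between all of them. The study also found several minerals enriched in fishmeal. Protein source, dietary cholesterol, minerals and fatty acids therefore cannot be told apart where fishmeal is compared with the other HFD groups. The salmon filet and beef diets held similar cholesterol, and protein source and fatty acids cannot be told apart between them. Mouse 31 was labelled salmon filet, whereas its column in the count table ends in Beef. It was kept as labelled, and every comparison with salmon filet or beef is also given with it counted as beef.

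The libraries held 42526234 to 70266136 counted reads, and the members held between 366 reads (Mbtps2) and 30487 reads (Insig1) in a single library. Protein coding genes took 93.2% to 95.6% of the reads in 19 mice and 84.3% in mouse 35 of the beef group. Counting noise did not account for the differences within groups, since chi-square per gene was 35.1 to 457 over the 41 pairs of libraries. Hepatocyte markers were abundant in all groups, with a summed level of 85700 to 117000 CPM (counts scaled to library size with TMM factors over all libraries), and 0 of 7 passed the test in HFD versus chow, fishmeal versus chow or fishmeal versus other HFD. Kupffer cell and macrophage markers summed to 308 to 689 CPM in chow-fed and 282 to 578 CPM in HFD-fed mice, and 0 of 11 passed in those 3 comparisons. T cell markers summed to 3.14 to 5.47 CPM with chow and 1.56 to 3.64 CPM with HFD, and B cell markers to 6.64 to 15.1 CPM and 2.77 to 6.67 CPM. In HFD versus chow 4 of 7 T cell and 5 of 5 B cell markers were lower. In both HFD versus chow and fishmeal versus chow 1 of 6 endothelial and 1 of 5 cholangiocyte markers were lower and 1 of 5 red blood cell markers was higher, while no marker list had a call in fishmeal versus other HFD. The part of these cell types in the results below was not tested. In whole liver, fewer cells of a type and less RNA per cell cannot be told apart.

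The promoter windows of Srebf2, Insig1 and Insig2, the paralogue of Insig1, are shown with 4 motifs in capitals. Of the members with a window, only Srebf2 and Insig1 had 95% intervals below 0 in both fishmeal versus chow and fishmeal versus other HFD. Scap and Mbtps2 also had their lowest group mean with fishmeal, and their windows are not shown. Each window runs from 250 bases before to 50 bases after a RefSeq gene start on GRCm38.p6 and is written 5′ to 3′ on the gene's strand: chr15:82147019-82147318 (plus strand) for Srebf2, chr5:28071162-28071461 (plus strand) for Insig1, and chr1:121332540-121332839 (minus strand) for the most upstream of 3 starts of Insig2. The motifs searched on both strands were TCACNCCA (a core of sterol regulatory elements), CCAAT (bound by NF-Y), CACGTG (an E-box) and GGGCGG (a GC box).
Srebf2: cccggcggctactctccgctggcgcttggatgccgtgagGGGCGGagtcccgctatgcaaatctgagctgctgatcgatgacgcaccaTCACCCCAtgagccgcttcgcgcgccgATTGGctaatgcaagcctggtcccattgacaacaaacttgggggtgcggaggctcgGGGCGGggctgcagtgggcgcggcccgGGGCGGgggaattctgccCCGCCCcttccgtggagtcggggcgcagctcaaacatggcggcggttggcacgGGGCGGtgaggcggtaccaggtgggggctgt
Insig1: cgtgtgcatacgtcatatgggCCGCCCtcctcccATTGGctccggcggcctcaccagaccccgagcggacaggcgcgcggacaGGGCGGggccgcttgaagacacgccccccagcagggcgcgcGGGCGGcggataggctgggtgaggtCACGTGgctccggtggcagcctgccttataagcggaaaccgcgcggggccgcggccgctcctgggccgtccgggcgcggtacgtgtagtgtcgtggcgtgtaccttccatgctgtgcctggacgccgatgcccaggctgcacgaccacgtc
Insig2: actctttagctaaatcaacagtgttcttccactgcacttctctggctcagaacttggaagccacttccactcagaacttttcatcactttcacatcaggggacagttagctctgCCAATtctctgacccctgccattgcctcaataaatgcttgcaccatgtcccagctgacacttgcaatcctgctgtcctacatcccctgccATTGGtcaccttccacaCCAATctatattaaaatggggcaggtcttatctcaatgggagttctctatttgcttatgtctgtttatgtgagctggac

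Counted from 1 at the 5′ end of its window, Srebf2 had TCACCCCA at base 89 and a reversed CCAAT at base 116, with 5 GC boxes around them. Insig1 had a reversed CCAAT at base 35, an E-box at base 150 and 3 GC boxes, and no TCACNCCA in these 300 bases. The Insig2 window shown had 3 CCAAT boxes, at bases 115, 205 and 222, and no GC box, and 46.0% of its bases were G or C against 68.7% for Srebf2 and 71.7% for Insig1. This held for that start alone. The windows of the other Insig2 starts, not shown, were 57.0% and 69.3% G or C, each with a GC box and no CCAAT. Of the 7 members with a window in the RefSeq table, 1 had TCACNCCA, 4 CCAAT, 2 CACGTG and 6 GGGCGG. Counted in the same way over any window of a gene, 4.97% of 27025 genes had TCACNCCA, 41.1% CCAAT, 8.09% CACGTG and 38.2% GGGCGG. By window, the shares of all 32851 were 4.36%, 37.4%, 7.15% and 35.7%. These matches describe letters and were not tested as binding sites.

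On GRCm38, Srebf2 lies at chr15:82147181-82205379, Scap at chr9:110333288-110384950, Insig1 at chr5:28071363-28078662 and Insig2 at chr1:121304353-121332589. Stard4 lies at chr18:33199355-33213862, Npc1 at chr18:12189692-12236400, Npc2 at chr12:84754562-84773152 and Soat2 at chr15:102150526-102163469. Mbtps1 lies at chr8:119508156-119558735 and Mbtps2 at chrX:157535371-157598715. All values below are over whole genes. Npc1 shares 511 exonic bases with Rmc1 on the opposite strand, whose reads came to 11.5% of those of Npc1. Mbtps2 shares 2867 exonic bases with Yy2 on its own strand, and Yy2 was listed at 0 in every library. Whether reads were counted by strand, and how reads in shared bases were treated, is not given in the sources used here. For Insig1, 189 bases were 98.9% identical to the pseudogene RP23-396I19.1, which had 0.331% as many reads. For Soat2, 128 bases were 95.3% identical to Slco2a1, whose reads came to 172% of those of Soat2, and 172 bases were 95.3% identical to Afap1, whose reads came to 4.52%. Values of Soat2 are uncertain to the extent that reads in these bases were shared, which was not tested.

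Levels between genes were compared in TPM, which scales counts by a length for each gene. The study's methods do not give that length. Npc2, with 5438 annotated exonic bases, had a mean of 54.3 CPM and 25.2 TPM over the 20 livers. Soat2, with 2213 annotated exonic bases, had 61.5 CPM and 70.5 TPM. Whether the lengths used match the transcripts expressed in liver was not tested, and the order of genes below depends on them. Insig1, which holds Scap back when sterols are plentiful, had the highest mean of the 10 genes, 300.0 ± 99.0 TPM (SD, n = 20), followed by Insig2 with 167 ± 49.0 TPM. Insig1 was above Insig2 in 17 of 20 livers. Soat2 had 70.5 ± 14.2 TPM and Stard4 58.3 ± 11.9 TPM, a gap of 12.2 TPM that was smaller than the SD of Soat2. Npc1 (33.0 ± 8.45 TPM), Scap (28.8 ± 7.09 TPM), Npc2 (25.2 ± 4.07 TPM) and Srebf2 (22.1 ± 6.35 TPM) followed, and each gap between these neighbours was smaller than the larger of their SDs. The proteases were lowest, Mbtps1 with 15.6 ± 1.52 TPM and Mbtps2 with 2.33 ± 0.319 TPM, and Mbtps1 was above Mbtps2 in 20 of 20 livers.

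**Figure D1:**
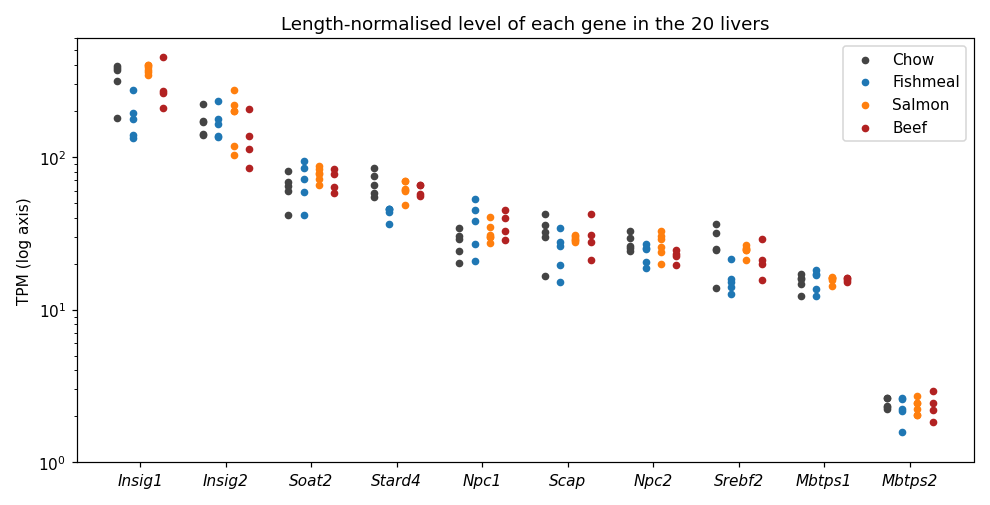
TPM of each gene (log axis) in the 20 livers, with 1 point per mouse and columns for chow, fishmeal, salmon filet and beef within each gene. Insig1 spans the top of the plot with a mean of 300.0 TPM and Mbtps2 the bottom with 2.33 TPM.

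Fishmeal versus chow asked how the liver of mice fed HFD with fishmeal differed from that of lean controls. Stard4 fell, and Insig1 and Srebf2 had lower means without passing the test. Of the 10 members, 3 had an unadjusted p under 0.05. No share of all genes at that threshold is given for this or any later comparison, so such counts cannot be weighed against all genes. Stard4, the soluble carrier of cholesterol between membranes, had 128, 151, 192, 136 and 119 CPM in chow-fed mice 1, 2, 5, 7 and 10. In fishmeal-fed mice 12, 13, 14, 16 and 20 it had 97.4, 94.8, 93.6, 103 and 94.6 CPM. All 5 fishmeal-fed mice were below all 5 chow-fed mice, and their coefficient of variation was 4.15% against 19.7% with chow. The log2 fold change was -0.59 (SE 0.12, 95% interval -0.86 to -0.32; edgeR adjusted p = 0.0211), a fall by 33.5%. Stard4 was the 1 member of 10 that passed, where 3.38% of the 16471 genes tested passed and 1.93% passed as lower. Among 12692 genes with a mean of at least 1 CPM, 3.24% had every fishmeal-fed mouse below every chow-fed mouse.

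Insig1 had 452, 348, 477, 453 and 218 CPM in the same chow-fed mice and 289, 161, 158, 340 and 204 CPM with fishmeal. The groups overlapped through chow-fed mouse 10. Its log2 fold change was -0.76 (SE 0.25, 95% interval -1.31 to -0.21; edgeR adjusted p = 0.133). Srebf2 had 39.3, 81.6, 106, 65.6 and 70.1 CPM with chow and 52.3, 57.9, 38.7, 36.6 and 42.6 CPM with fishmeal, and the overlap came from chow-fed mouse 1. The log2 fold change of Srebf2 was -0.68 (SE 0.22, 95% interval -1.15 to -0.20; edgeR adjusted p = 0.122). Neither passed over all genes, although both intervals lie below 0. The call for Stard4 was lost without mouse 2, 13, 14 or 20, at adjusted p of 0.0557 to 0.0625, and Srebf2 passed without mouse 1, at -0.82 and an adjusted p of 0.0221. In fishmeal versus chow with the clock score described below as a covariate, Stard4 was at -0.67 (edgeR adjusted p = 0.291). The clock scores of these groups did not overlap, so diet and clock score cannot be told apart in that fit.

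**Figure D2:**
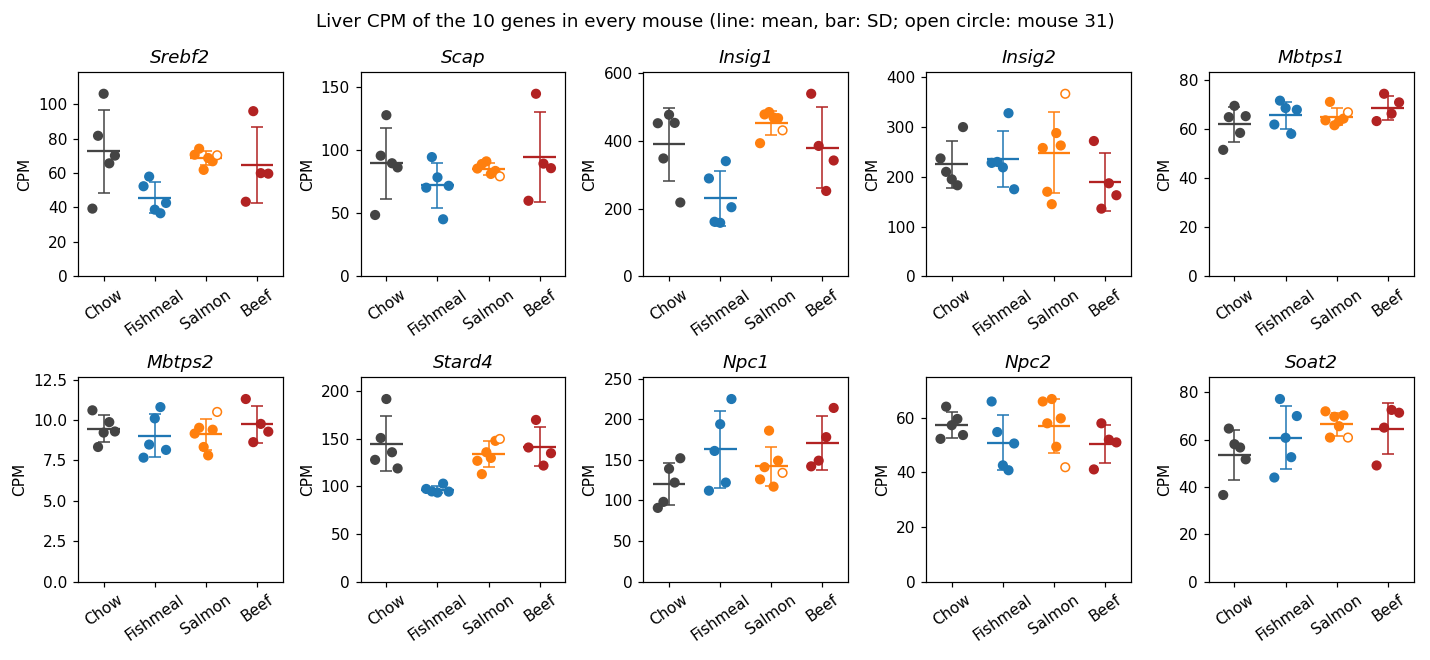
CPM of each gene (axis from 0) in chow, fishmeal, salmon filet and beef groups, with 1 point per mouse, a line at the mean, a bar of 1 SD and an open circle for mouse 31. The 5 fishmeal-fed mice sit between 93.6 and 103 CPM for Stard4, below every other mouse.

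Fishmeal versus the other HFD groups compared diets of matched fat energy that differed in protein source, cholesterol and fatty acids, with salmon filet and beef pooled (n = 10), so that the group of mouse 31 did not matter. Stard4 fell here too. In the other HFD-fed mice Stard4 ranged from 113 to 170 CPM with a median of 135 CPM, above the 103 CPM of the highest fishmeal-fed mouse. The log2 fold change was -0.49 (SE 0.09, 95% interval -0.68 to -0.30; edgeR adjusted p = 0.0341), a fall by 28.9%. Again 1 of 10 members passed, where 0.155% of 16795 genes passed and 0.143% passed as lower, and 0.221% of the 12692 genes had no overlap in this direction. With chow included, 0.15% of those genes had every fishmeal-fed mouse below all 15 others, and Stard4 was 1 of these 19 genes.

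In the same comparison Insig1 ranged from 252 to 539 CPM in the other HFD-fed mice (median 449 CPM). Fishmeal-fed mice 13, 14 and 20 were below this range and mice 12 and 16 within it. Insig1 had a log2 fold change of -0.87 (SE 0.20, 95% interval -1.28 to -0.45; edgeR adjusted p = 0.14), the lowest of the members. Srebf2 ranged from 43.3 to 95.9 CPM (median 67.8 CPM), and 3 fishmeal-fed mice were below it. Srebf2 had a log2 fold change of -0.55 (SE 0.15, 95% interval -0.85 to -0.24; edgeR adjusted p = 0.354). The 2 comparisons of fishmeal share the fishmeal-fed mice. The call for Stard4 was lost without any 1 of the 5 fishmeal-fed mice or of mice 25, 26, 27 and 31, at adjusted p of 0.0514 to 0.118 and log2 fold changes of -0.52 to -0.48. Stard4 kept -0.46 (adjusted p = 0.0173) without mouse 35, and with all 4 groups in the fit it had an adjusted p of 0.06. Insig1 passed without mouse 16 (-1.05, adjusted p = 0.0462), without mouse 39 (-0.93, adjusted p = 0.0437) and with DESeq2 (adjusted p = 0.00392). The share of all genes that DESeq2 called is not given here.

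**Figure D3:**
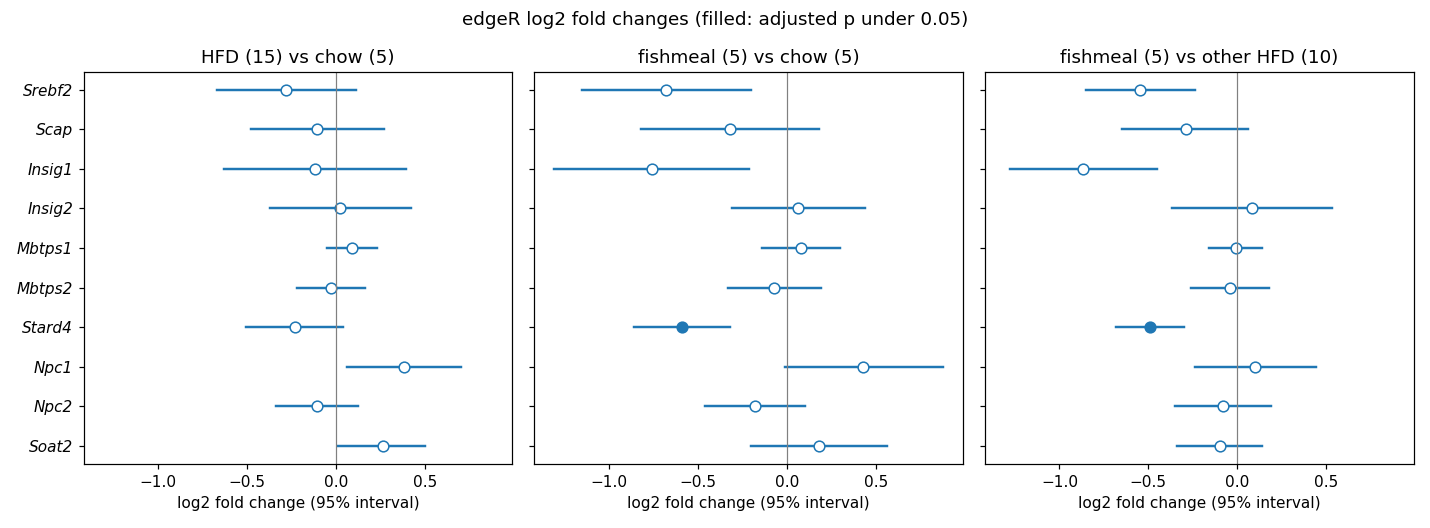
Log2 fold changes of the 10 genes with 95% intervals in HFD (n = 15) versus chow (n = 5), fishmeal (n = 5) versus chow and fishmeal versus other HFD (n = 10), where filled points passed at an adjusted p under 0.05. Only Stard4 is filled, at -0.59 and -0.49 in the fishmeal comparisons.

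Against salmon filet alone, 3 members had no overlap between the groups, Insig1, Srebf2 and Stard4, and none passed the test with edgeR, although these 3 had an unadjusted p under 0.05. In salmon filet-fed mice 22, 23, 25, 26, 27 and 31, Insig1 ranged from 393 to 485 CPM with a median of 468 CPM. Srebf2 ranged from 61.8 to 74.1 CPM with a median of 69.5 CPM, all above the 57.9 CPM of the highest fishmeal-fed mouse. The study also measured Srebf2 by RT-qPCR in all of its mice, more than were sequenced, and reported no difference between its HFD groups. Stard4 ranged from 113 to 150 CPM with a median of 133 CPM. The log2 fold changes were -0.96 for Insig1 (95% interval -1.37 to -0.55; edgeR adjusted p = 0.0873), -0.58 for Srebf2 (-0.83 to -0.33; 0.0936) and -0.45 for Stard4 (-0.65 to -0.26; 0.0873). Across all genes 0.157% passed, and 0.512% of the 12692 genes had every fishmeal-fed mouse below every salmon filet-fed mouse. With mouse 31 as beef the values were -0.99, -0.58 and -0.43, with adjusted p of 0.125, 0.145 and 0.124, and 0.17% of all genes passed. DESeq2 called all 3 genes, with adjusted p of 0.000402 for Insig1, 0.00231 for Srebf2 and 0.000373 for Stard4. The shares of all genes above are those of edgeR. None is given for DESeq2, so its calls are not weighed against all genes here. The study printed totals from its own DESeq2 analysis of protein coding genes, which was not the fit used here. With edgeR, Srebf2 passed without mouse 13 (-0.69, adjusted p = 0.0266), Insig1 without mouse 16 (-1.14, 0.0177) and Stard4 without mouse 23 (-0.50, 0.0341). The spread in salmon filet-fed mice was small, with a coefficient of variation of 7.72% for Insig1 and 6.06% for Srebf2, against 35.1% and 20.1% in fishmeal-fed mice.

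Against beef alone no member passed with edgeR, where 0.00607% of all genes did, and 3 members had an unadjusted p under 0.05. Beef-fed mice 32, 35, 39 and 40 had 141, 170, 122 and 135 CPM of Stard4, with no overlap with fishmeal (log2 fold change -0.55, 95% interval -0.81 to -0.30; edgeR adjusted p = 0.433). The share of all genes without overlap in this comparison is not given here, so that of Stard4 cannot be weighed against it. The same beef-fed mice had 539, 385, 252 and 342 CPM of Insig1, which overlapped with fishmeal at -0.72 (-1.32 to -0.13). Srebf2 had 43.3, 95.9, 59.9 and 59.6 CPM, which also overlapped, at -0.51 (-0.97 to -0.04). With mouse 31 as beef, 0.0245% of genes passed, no member did, and the log2 fold changes were -0.57 for Stard4 (adjusted p = 0.173), -0.76 for Insig1 and -0.53 for Srebf2. Without mouse 35 Srebf2 was at -0.24 and Stard4 at -0.45 in fishmeal versus beef. DESeq2 called Stard4 there (adjusted p = 0.0153), and the share of all genes that it called is not given here.

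HFD versus chow compared all 15 HFD-fed mice with the 5 lean controls, and no member passed, where 9.75% of 17120 genes did. At an unadjusted p under 0.05 there were 2, Npc1 and Soat2, and DESeq2 also called 0. The 9.75% of all genes is at the adjusted threshold, and the share at the unadjusted one is not given here. Npc1, the membrane protein that exports cholesterol from lysosomes, had 90.8, 98.2, 139, 122 and 152 CPM with chow and 112 to 225 CPM with HFD (median 149 CPM). Its log2 fold change was 0.38 (95% interval 0.06 to 0.70; edgeR adjusted p = 0.13). Soat2, the acyltransferase that makes cholesteryl esters in hepatocytes, had 36.6, 64.7, 58.1, 56.7 and 51.7 CPM with chow and 44.0 to 77.2 CPM with HFD (median 65.7 CPM). Its log2 fold change was 0.26 (0.01 to 0.50; adjusted p = 0.179). Both genes overlapped between the groups. Stard4 was at -0.23 (-0.51 to 0.04; adjusted p = 0.286), Insig1 at -0.12 (-0.63 to 0.39; 0.814) and Srebf2 at -0.28 (-0.67 to 0.11; 0.394).

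In each of the other HFD groups against chow no member passed either, with edgeR or DESeq2. At an unadjusted p under 0.05 there was 1 with salmon filet and 1 with beef. With mouse 31 as beef these counts were 1 and 2, and the 2 with beef were Npc1 (0.43) and Npc2 (-0.24). For salmon filet, 4.46% of all genes passed as labelled and 4.42% with mouse 31 as beef, and the members' log2 fold changes ran from -0.12 to 0.31 and from -0.16 to 0.33. The highest was Soat2 (0.31, 95% interval 0.05 to 0.57; edgeR adjusted p = 0.154). For beef, 2.48% and 3.05% of all genes passed, and the members ran from -0.25 to 0.50 and from -0.24 to 0.43. The highest was Npc1 (0.50, 95% interval 0.12 to 0.87; edgeR adjusted p = 0.16). Between salmon filet and beef 0% of genes passed with either grouping, 0 members had an unadjusted p under 0.05 as labelled and 1 with mouse 31 as beef (Npc2, 0.29), and the members ran from -0.27 to 0.39 and from -0.19 to 0.29. Stard4 was at -0.09 (-0.33 to 0.16) there, Insig1 at 0.25 (-0.12 to 0.62) and Srebf2 at 0.08 (-0.29 to 0.45).

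The remaining control genes had smaller differences. Scap, the escort that carries SREBP to the Golgi, had 48.7, 95.8, 128, 89.8 and 86.5 CPM with chow and 70.4, 94.7, 78.6, 45.3 and 71.9 CPM with fishmeal. In the other HFD-fed mice it ran from 60.0 to 145 CPM (median 85.8 CPM), and the groups overlapped throughout. The log2 fold change of Scap was -0.32 (95% interval -0.82 to 0.18; edgeR adjusted p = 0.546) in fishmeal versus chow and -0.29 (-0.65 to 0.06; 0.997) in fishmeal versus other HFD. Insig2, the second retention protein, had 237, 210, 195, 183 and 300 CPM with chow, 228, 230, 219, 328 and 175 CPM with fishmeal and 136 to 367 CPM in the other HFD-fed mice (median 222 CPM). Its log2 fold change was 0.06 (-0.31 to 0.44) in fishmeal versus chow and 0.08 (-0.37 to 0.53) in fishmeal versus other HFD, where Insig1 was at -0.76 and -0.87. The difference between the 2 Insig genes was not tested.

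The proteases varied least. Mbtps1 ranged from 51.4 to 74.2 CPM over the 20 mice, with log2 fold changes of 0.09 (95% interval -0.05 to 0.23) in HFD versus chow, 0.08 (-0.14 to 0.30) in fishmeal versus chow and -0.01 (-0.16 to 0.14) in fishmeal versus other HFD. Mbtps2 ranged from 7.67 to 11.3 CPM, at -0.03 (-0.22 to 0.16), -0.07 (-0.33 to 0.19) and -0.04 (-0.26 to 0.18) in these comparisons. The coefficient of variation over all mice was 8.29% for Mbtps1 and 11% for Mbtps2, against 32.1% for Insig1.

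Of the lysosomal pair, Npc2, the soluble protein that hands cholesterol to Npc1, ranged from 52.3 to 64.1 CPM with chow, 40.8 to 66.0 CPM with fishmeal and 41.1 to 66.9 CPM in the other HFD-fed mice. Its log2 fold change was -0.18 (95% interval -0.46 to 0.10) in fishmeal versus chow, -0.08 (-0.35 to 0.19) in fishmeal versus other HFD and -0.11 (-0.34 to 0.12) in HFD versus chow. Npc1 was at 0.43 (-0.01 to 0.88; edgeR adjusted p = 0.31) in fishmeal versus chow and at 0.10 (-0.24 to 0.44) in fishmeal versus other HFD. Soat2 had 44.0, 77.2, 60.8, 52.6 and 70 CPM in fishmeal-fed mice, at 0.18 (-0.20 to 0.56) against chow and -0.10 (-0.34 to 0.14) against other HFD. In the 3 comparisons of the fold change plot, 6, 6 and 8 of the 10 members were below 0, and their median difference on the log2 scale was -0.07 in HFD versus chow, -0.12 in fishmeal versus chow and -0.09 in fishmeal versus other HFD. The medians of all genes tested were 0.00499, -0.00551 and 0.00702.

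A list of genes that SREBP-2 drives, made of enzymes and uptake genes, was counted beside the members. Members such as Stard4, Insig1 and Srebf2 may themselves be driven by SREBP-2, so the list and the members are not separate responses by definition. This was not tested. Of 23 SREBP-2 target enzymes and uptake genes, 13 were lower and 0 higher in HFD versus chow (median log2 fold change -0.85), 20 lower and 0 higher in fishmeal versus chow (-1.81) and 14 lower and 0 higher in fishmeal versus other HFD (-1.12). By single diets, 3 were lower in salmon filet versus chow (-0.48, 1 with mouse 31 as beef) and 7 in beef versus chow (-0.72, 6 with mouse 31 as beef). In fishmeal-fed mice, 15 were lower than with salmon filet (-1.29, 16 with mouse 31 as beef) and 1 lower than with beef (-0.83, 3 with mouse 31 as beef). With the clock score described below as a covariate, edgeR called 0 in HFD versus chow (-0.78, 12 at an unadjusted p under 0.05), 10 in fishmeal versus chow (-1.74) and 14 in fishmeal versus other HFD (-1.14). No share of all genes called with this covariate is given. Whether the lower counts against chow concern these genes or all genes was not tested. In HFD versus chow the largest falls were in Sqle (-1.67, edgeR adjusted p = 0.022) and Cyp51 (-1.36, 0.00642), which act in sterol synthesis, and in Idi1 (-1.52, 0.0128), an enzyme of the isoprenoid steps. In fishmeal versus other HFD they were in Sqle (-2.46, 0.00144), Fdps (-2.31, 0.000535) and Mvd (-2.02, 0.0254). Stard4 fell by 0.59 and 0.49 on the log2 scale in the fishmeal comparisons, and the difference between it and these genes was not tested.

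Of 18 other genes of SREBP processing and turnover, 2 were higher and 0 lower in HFD versus chow, Srebf1, which encodes SREBP-1 (1.42, edgeR adjusted p = 2.22e-05), and Erlin2, an endoplasmic reticulum protein of Insig and HMG-CoA reductase turnover (0.22, 0.00642). In fishmeal versus chow 1 was higher, Srebf1 (1.5, 0.000332), and in fishmeal versus other HFD none passed. Of 18 tested genes among 19 of sterol transport and esters, 1 was higher in HFD versus chow, Scp2 (0.42, 0.00765), a sterol carrier of peroxisomes. In fishmeal versus chow 1 was lower, Tmem97 (-0.66, 0.015), a regulator of Npc1, and in fishmeal versus other HFD none passed. Srebf1 and Tmem97 are named for fishmeal versus chow after their values were seen. Of 8 LXR targets, a list that also holds Srebf1, 3 were higher in HFD versus chow, 3 higher in fishmeal versus chow and 0 passed in fishmeal versus other HFD. With the clock score as a covariate, HFD versus chow called 1 of the 18 processing genes, 0 of the 18 transport genes and 1 of the 8 LXR targets. These counts too have no share of all genes beside them.

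A target score, the mean centred log2 CPM of the 23 SREBP-2 target genes, ran from -1.41 to -0.66 in fishmeal-fed mice, -0.35 to 0.52 in the other HFD-fed mice and 0.22 to 1.2 with chow. Since fishmeal-fed mice formed a cluster of their own, no pooled correlation is given. Within the 10 other HFD-fed mice, Stard4 had Pearson's r of 0.49 (permutation p = 0.151) and Spearman's rho of 0.58 (permutation p = 0.0882) with the score, and r was 0.45 without the 2 most distant mice, 39 and 40, and 0.80 after centring within diets. Insig1 had r of 0.69 (permutation p = 0.0278) and rho of 0.32 (permutation p = 0.367), and r fell to -0.17 without mice 39 and 40, so the relation rested on these mice. Srebf2 had r of 0.38 (permutation p = 0.283) and rho of 0.36 (permutation p = 0.314), and r of 0.31 without those mice. Relations of all 10 members were computed, of which 1 had an unadjusted p under 0.05, and no gene of 12692 had an adjusted p under 0.05.

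**Figure D4:**
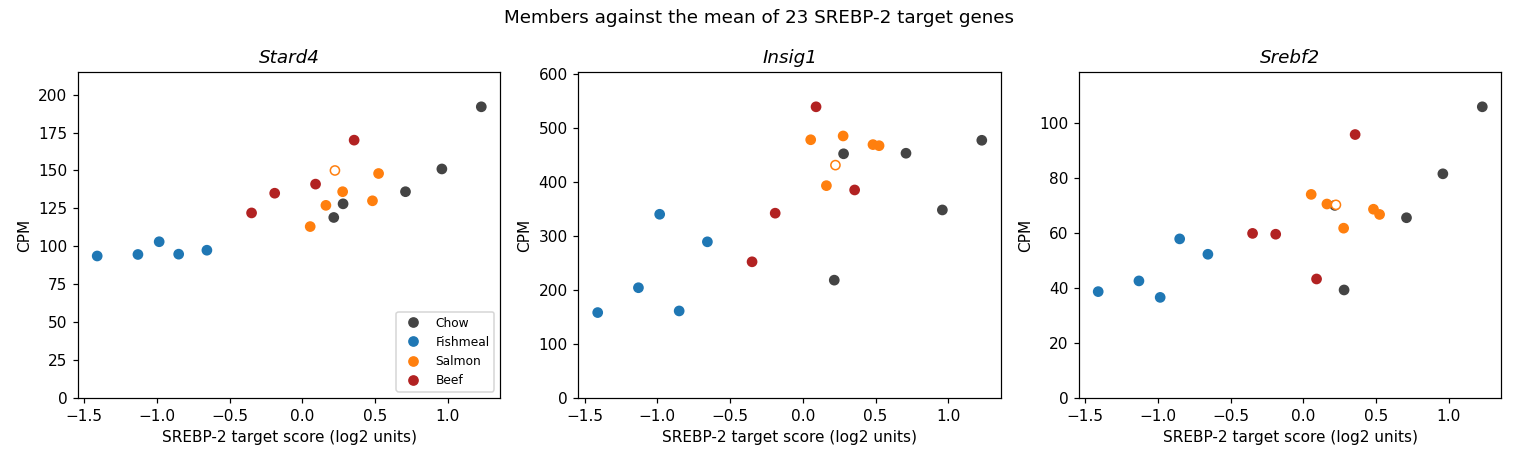
CPM of Stard4, Insig1 and Srebf2 (axis from 0) against the SREBP-2 target score of each mouse (log2 units), with 1 point per mouse coloured by group and an open circle for mouse 31. The fishmeal-fed mice lie apart at scores of -1.41 to -0.66.

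Clock genes differed between chow and HFD in these libraries, with 8 of 14 circadian clock genes higher and 2 lower in HFD versus chow, 5 higher in fishmeal versus chow and 0 called in fishmeal versus other HFD. A clock score was taken as the mean centred log2 CPM of Arntl, Npas2 and Clock minus that of Dbp, Nr1d1, Per3 and Ciart. It ran from 1.24 to 3.69 with chow, -3.71 to 1.2 with fishmeal, -3.97 to 2.63 with salmon filet and -4.64 to -0.02 with beef. The hour at which livers were taken is not given in the sources used here. Diet and clock score differed together, so their parts in HFD versus chow cannot be told apart by a comparison of the groups.

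Within the 15 HFD-fed mice, Insig2 and Npc1 followed the clock score in opposite directions. Insig2 had Pearson's r of 0.87 (permutation p = 6e-05, adjusted over all genes 0.0127) and Spearman's rho of 0.81 (permutation p = 0.00033, adjusted 0.0423). Its r was 0.84 without mice 25 and 40, the most distant ones, and 0.85 after centring within diets. Npc1 had r of -0.82 (permutation p = 0.00024, adjusted 0.0279) and rho of -0.78 (permutation p = 0.00088, adjusted 0.0697), with r of -0.76 without mice 25 and 40 and -0.81 within diets. So 2 of 10 members passed on Pearson's r, where 1.33% of 12692 genes did. The 3 HFD-fed mice with the lowest clock scores, mice 40, 25 and 20, had 163, 145 and 175 CPM of Insig2 and 214, 186 and 225 CPM of Npc1. The 3 with the highest, mice 31, 22 and 16, had 367, 258 and 328 CPM of Insig2 and 134, 126 and 122 CPM of Npc1. Mouse 35, at a score of -2.49, had the lowest Insig2 of all mice, 136 CPM, and 149 CPM of Npc1. The other 8 members had r between -0.37 and 0.22.

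With the clock score as a covariate in edgeR, the difference of Npc1 in HFD versus chow went from 0.38 to -0.09 (95% interval -0.37 to 0.18; adjusted p = 0.859). That of Insig2 went from 0.02 to 0.57 (0.24 to 0.90; adjusted p = 0.0758). In fishmeal versus other HFD, where the clock scores of the groups overlapped, the covariate left Stard4 at -0.49 (adjusted p = 0.0338), Insig1 at -0.89 (0.0704) and Srebf2 at -0.55 (0.33).

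**Figure D5:**
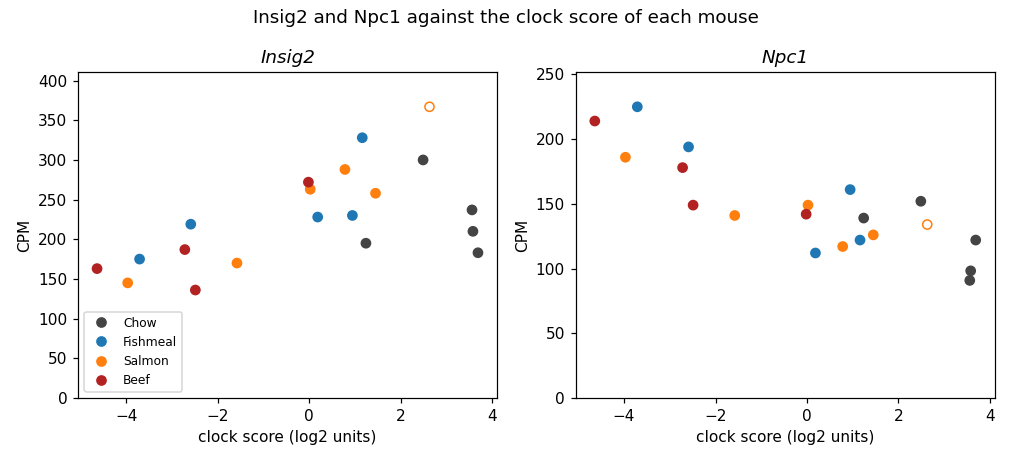
CPM of Insig2 and Npc1 (axis from 0) against the clock score of each mouse (log2 units), with 1 point per mouse coloured by group and an open circle for mouse 31. Over the 15 HFD-fed mice r was 0.87 for Insig2 and -0.82 for Npc1.

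The genes most like 3 of the members were sought over all 20 libraries among 12691 genes, by Pearson's r of log2 CPM and as a description with no test. For Srebf2 they were Mvk (mevalonate kinase), at r of 0.96, Tmco6 at 0.90 and Scap at 0.86, and after centring within groups these were 0.96, 0.88 and 0.91. Srebf2 and Scap were both lowest among chow-fed mice in mouse 1 (39.3 and 48.7 CPM), lowest with fishmeal in mouse 16 (36.6 and 45.3 CPM), and highest with beef in mouse 35 (95.9 and 145 CPM), the library with 84.3% of reads in protein coding genes. For Insig1 they were Sc5d, an enzyme late in cholesterol synthesis, at 0.90, Pstpip2 at 0.86 and the pseudogene RP23-396I19.1 that resembles Insig1, at 0.85. For Insig2 they were Cdcp1 and Fermt1, both at 0.84, and Arl4a at 0.82. All points of a correlation share the libraries, their depth and the diets.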

How the data were processed

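Per the labels and the study's methods, strand-specific mRNA libraries of 20 mouse livers were sequenced, and the authors trimmed reads with BBDuk, mapped them with HISAT2 1.2.1 and counted them per gene with featureCounts 1.4.6-p1. The build is printed as human, while the identifiers are mouse Ensembl genes. Positions come from GENCODE M21 on GRCm38. The deposited values used here are raw counts per gene and, as the authors' second table, TPM. No column of per-sample values was left unmapped to a sample.

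Groups followed the sample labels. The members and all gene lists were chosen with earlier results of these data known. Each comparison was fitted on its own groups with edgeR 4.0 in R 4.3 (TMM factors, genes kept by filterByExpr with its count limit at 10, two-sided quasi-likelihood test, Benjamini-Hochberg over all genes tested) and called at an adjusted p under 0.05. Standard errors are the log2 fold change over the root of F. Log2 CPM used a prior count of 2. Correlations used 100000 permutations of mice, adjusted over genes of mean CPM at least 1. Alternatives were DESeq2 1.42, its size factors in edgeR, no filter beyond 1 count, all 4 groups in the fit, limma 3.58 on log2(TPM + 1) or log2(TPM + 0.1) at a mean TPM of at least 0.5, mouse 31 as beef, the clock score as covariate and each mouse left out. Named genes were all members, the 3 largest called genes of each pathway list and the 3 most alike genes. Motifs and the correlations were chosen after seeing the data. Similar transcripts were sought with blastn 2.17 at 95% identity over 100 bases. The fits were tested on simulated counts with 200 changed genes. Replicates are separate mice, so the tests weigh differences against the spread between mice. The study weighed food by cage, and the cage of each mouse is not given in the sources used here. An effect of cage therefore cannot be told apart from one of diet.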

Additional observations from a re-analysis of the deposited data

Results flagged for a closer look

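The difference of Stard4 between fishmeal and the other HFD groups was itself tested and passed, at a log2 fold change of -0.49 (edgeR adjusted p = 0.0341). For Insig1, all 5 fishmeal-fed mice were below the chow mean of 390 CPM and all 6 salmon filet-fed mice were above it. The direct test of fishmeal against salmon filet gave a log2 fold change of -0.96 (edgeR adjusted p = 0.0873), so this difference did not pass. Of the 40 sets of values of a member in a group, none had a mouse beyond Dixon's critical value, where chance flags about 1 in 20.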

How the results depend on the processing

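No paired analysis was possible because the labels give the groups no shared replicate numbers. The count of members called stayed at 0 under every alternative in HFD versus chow, salmon filet versus chow, beef versus chow and salmon filet versus beef. No share of all genes called is given for DESeq2. With it the count rose to 3 in fishmeal versus salmon filet, to 1 in fishmeal versus beef and to 2 in fishmeal versus other HFD. In fishmeal versus salmon filet it was 1 with no filter and with limma on log2(TPM + 1) and log2(TPM + 0.1), in each case Insig1. It fell to 0 in fishmeal versus other HFD with all 4 groups in the fit and in fishmeal versus chow with the clock score. With 1 mouse left out it ran from 0 to 2 in fishmeal versus chow and in fishmeal versus other HFD, from 0 to 1 in fishmeal versus salmon filet, and stayed at 0 in fishmeal versus beef. The causes were not tested.

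Over all 80 pairs of a member and a comparison, 1442 of 1530 values under alternatives kept their direction and 88 turned. With the clock score the sign turned for Insig1 (0.04), Npc1 (-0.09) and Mbtps2 (0.04) in HFD versus chow, for Npc1 (-0.22) and Mbtps1 (-0.08) in fishmeal versus chow, and for Npc1 (-0.05) and Mbtps2 (0.04) in salmon filet versus chow. In beef versus chow it turned for Scap (-0.81), Insig1 (0.54), Insig2 (0.38), Npc1 (-0.27), Soat2 (-0.24) and Mbtps1 (-0.12). Clock scores did not overlap in fishmeal versus chow or beef versus chow, so these turns rest on extrapolation. With all 4 groups in the fit the sign turned for Insig2 in HFD versus chow (-0.01) and Mbtps2 in fishmeal versus salmon filet (0.0011). With both limma fits it turned for Insig2 in HFD versus chow (-0.07), Scap (-0.03) and Mbtps2 (-0.04 and -0.06) in beef versus chow, Mbtps1 in fishmeal versus salmon filet (-0.03), and Stard4 and Mbtps1 in salmon filet versus beef (both 0.01). With mouse 31 as beef it turned for Insig2 in salmon filet versus chow (-0.01), beef versus chow (6.6e-05), fishmeal versus salmon filet (0.07) and salmon filet versus beef (-0.01), for Npc2 in salmon filet versus chow (0.06) and for Mbtps2 in fishmeal versus salmon filet (0.03).

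With 1 mouse left out, signs turned in HFD versus chow for Scap (-0.26 to 0.05), Insig2 (-0.05 to 0.14) and Mbtps2 (-0.07 to 0.02), and in fishmeal versus chow for Insig2 (-0.08 to 0.19). In fishmeal versus other HFD they turned for Insig2 (-0.07 to 0.18), Npc1 (-0.06 to 0.20), Mbtps1 (-0.05 to 0.03) and Mbtps2 (-0.12 to 0.01). In salmon filet versus chow they turned for Srebf2 (-0.23 to 0.09), Scap (-0.23 to 0.08), Insig2 (-0.01 to 0.26) and Npc2 (-0.06 to 0.06). In beef versus chow they turned for Srebf2 (-0.42 to 0.01), Scap (-0.20 to 0.25), Insig1 (-0.27 to 0.11), Stard4 (-0.13 to 0.09) and Mbtps2 (-0.05 to 0.10). In fishmeal versus salmon filet they turned for Insig2 (-0.21 to 0.07), Mbtps1 (-0.02 to 0.07) and Mbtps2 (-0.07 to 0.04), and in fishmeal versus beef for Npc1 (-0.22 to 0.05), Npc2 (-0.09 to 0.09) and Soat2 (-0.19 to 0.02). In salmon filet versus beef they turned for Srebf2 (-0.07 to 0.33), Scap (-0.33 to 0.11), Stard4 (-0.15 to 9.2e-06) and Soat2 (-0.07 to 0.10).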
